A study of Oryctolagus cuniculus with 24 samples.

Results

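The caecal epithelium of rabbits given dextran sulfate sodium (DSS) alone was compared with that of rabbits that received no DSS. The comparison used the intestinal epithelial cell (IEC) libraries of the Veh DSS and Veh Water groups, taken by their labels and treatment from the deposited table that sets the first group over the second. These were 6 of the 24 libraries of the series, 3 per group, each from a different rabbit. All 6 rabbits were immunocompetent New Zealand White animals, kept singly and 8 to 10 weeks of age at entry. All had received the vehicle, a phosphoric acid buffer with potassium sorbate, by gavage in 3 doses on days 1, 14 and 21. The Veh DSS rabbits then drank fennel tea with 0.1% DSS for 5 days from day 26, and the Veh Water rabbits drank the tea without it. Tissue of both groups was taken on day 35, after the DSS had been withdrawn. The series also holds the lamina propria mononuclear cells (LPMC) of the same rabbits. In addition, it holds both cell types of the TSO Water and TSO DSS rabbits, which received 2500 ova of the pig whipworm Trichuris suis per dose in place of the vehicle. By the sample metadata of the study, Veh Water rabbit 1 was kept in another room than the other 5 rabbits.

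The epithelium of the large intestine is a single sheet of absorptive, mucus-secreting, hormone-secreting and stem cells that separates the lumen from the lamina propria, the connective tissue that houses most of the immune cells of the gut. DSS is a sulphated polysaccharide that injures this sheet when taken by mouth, and the colitis that follows is widely used as a model of inflammatory bowel disease. After the injury, leukocytes enter the mucosa, and the sheet is closed again by migration and division of epithelial cells. IEC are detached from the mucosa with a calcium chelator before the lamina propria is digested, so that lymphocytes which sit between epithelial cells come off with them.

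The table gave 17318 rabbit genes by Ensembl identifier, chromosome and strand, without symbols. The name table at hand, of a later assembly, matched 0 of these identifiers, so that the identity of the genes is not given below and the marker check of the epithelium could not be made on named genes. In log2 levels over 10399 genes, the lowest correlation between any of the 6 libraries was 0.851 and the highest correlation of any of them with an LPMC library was 0.889, so that the ranges overlapped. The libraries held 26763487, 19503308 and 14305601 reads in Veh DSS rabbits 1 to 3 and 27479949, 21449147 and 13148500 in Veh Water rabbits 1 to 3. Values are the deposited normalised signal, which is the read number times a factor of the library. Log2 changes are Veh DSS minus Veh Water on the scale of log2(signal + 1), which understates the change of low genes.

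Few genes separated the groups beyond the spread between rabbits. Of 11193 genes tested, 10 were called (limma, Benjamini-Hochberg adjusted p below 0.05, log2 change beyond 1 in either direction), which was 0.0893% of the genes. Signal of 3 genes rose (0.0268%) and that of 7 fell (0.0625%). Without adjustment, 721 genes (6.44%) passed at the same fold, of which 584 (5.22%) were higher and 137 (1.22%) lower in Veh DSS. This unadjusted count also depended on single rabbits. It was 1385 (899 higher, 486 lower) without Veh DSS rabbit 1 and 439 (342 higher, 97 lower) without Veh DSS rabbit 2. With any other rabbit left out it was between 464 and 597. The 3 libraries of each group did not overlap for 1500 genes (13.4%), of which 889 (7.94%) were higher in Veh DSS and 611 (5.46%) lower. The median log2 change of all genes tested was -0.05. In bulk libraries, a change in the number of cells of a type and a change in RNA per cell cannot be told apart.

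**Figure D1:**
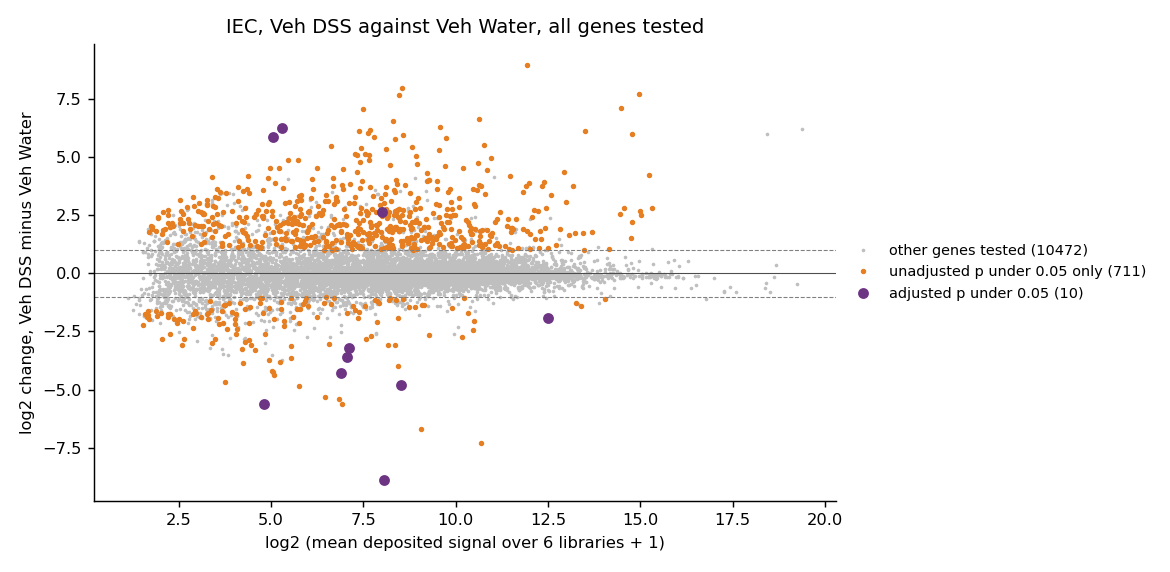
Log2 change of each of the 11193 genes tested (Veh DSS minus Veh Water, y axis) against the log2 of the mean deposited signal of the 6 IEC libraries plus 1 (x axis). Dashed lines mark a log2 change of 1 in either direction; the 10 called genes are purple, and the genes past the unadjusted p-value only, orange, lie mostly above the zero line.

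The strongest statistical change was a fall of ENSOCUG00000025132, a gene on chromosome 9. Its signal was 23.7, 25.6 and 24.9 in Veh DSS rabbits 1 to 3 and 712, 727 and 695 in Veh Water rabbits 1 to 3. The means were 24.7 ± 0.967 and 711 ± 16.1 (SD, n = 3 each), 28.8-fold lower in Veh DSS, and the log2 change was -4.79 ± 0.20 (SE, adjusted p = 0.00164, limma). The rabbits of each group lay close together and the groups were far apart.

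Another 4 of the falling genes had the same shape, on chromosome X, on chromosome 14 and, as a pair, on chromosome 4. The chromosome X gene had a signal of 30.8, 24.5 and 22.3 in Veh DSS and of 231, 257 and 258 in Veh Water (log2 change -3.23 ± 0.26 SE, adjusted p = 0.025, limma). The chromosome 14 gene, which took the most reads of the 5, had 2341, 2003 and 3049 in Veh DSS and 8646, 9126 and 9608 in Veh Water (-1.91 ± 0.18, adjusted p = 0.0364). No Veh DSS rabbit came near the lowest Veh Water rabbit for either gene. On chromosome 4, the signal of the first gene was 18.1, 27.7 and 14.4 in Veh DSS against 226, 258 and 250 in Veh Water (-3.59 ± 0.32, adjusted p = 0.0364, limma). The second gene there had 15.0, 13.9 and 5.24 against 212, 230 and 231 (-4.30 ± 0.44, adjusted p = 0.0459, limma). The falls of the 5 genes thus ran from 3.70-fold to 28.8-fold on the deposited scale, with the largest fold in the chromosome 9 gene and the smallest in the chromosome 14 gene.

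These 5 genes also moved together elsewhere in the series. Over all 24 libraries, which include the 6 that chose these genes, with each cell type centred, the 10 correlations between pairs of them were between 0.968 and 0.993 (Pearson, log2 of reads scaled to the library total, with both cell types of each rabbit and all groups among the points). Over the 12 libraries of the TSO rabbits alone, which had no part in the choice, they were between 0.9754 and 0.997. In LPMC of Veh DSS against Veh Water, which are other libraries of the same 6 rabbits, their log2 changes were -4.97, -2.65, -1.61, -2.81 and -3.78 for the genes on chromosomes 9, X and 14 and the pair on chromosome 4. All 5 were called there (adjusted p between 0.00768 and 0.0403, limma), in a table in which 14 genes were called (0.125%). The difference between the IEC and the LPMC change was not called for any of the 5, with adjusted p between 0.834 and 0.939 and estimates between -0.69 and 0.28.

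Among the TSO DSS rabbits, the same genes divided the animals. In IEC, the chromosome 9 gene had 11 and 21 reads in TSO DSS rabbits 1 and 2 and 345 in rabbit 3. The Veh DSS rabbits had 30, 24 and 19 reads, the Veh Water rabbits 1022, 836 and 464, and the TSO Water rabbits 405, 455 and 346. Scaled to the library total (CPM), TSO DSS rabbit 3 had 19.6, nearer to the 24.3 to 39.0 of the rabbits without DSS, though below all of them. Mitochondrial reads made up 46.5% of its IEC library, against 17.4% to 41.7% in the IEC libraries without DSS. Its place below them thus holds for the share of all reads, and was not tested on nuclear reads alone. TSO DSS rabbits 1 and 2 had 0.706 and 0.910, below the 1.12 to 1.33 of the Veh DSS rabbits. In LPMC, the gene had 5, 12 and 118 reads in TSO DSS rabbits 1 to 3, which was 0.604, 0.868 and 32.0 CPM in libraries of unequal depth. The Veh DSS rabbits had 0.416 to 0.863 CPM there and the rabbits without DSS 17.9 to 26.2, so that TSO DSS rabbit 3 was above all of these. The log2 difference of TSO DSS minus Veh DSS in IEC for this gene was 1.06 ± 1.36 (SE, adjusted p = 0.999, limma), so that no difference between the DSS groups was detectable for it.

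**Figure D2:**
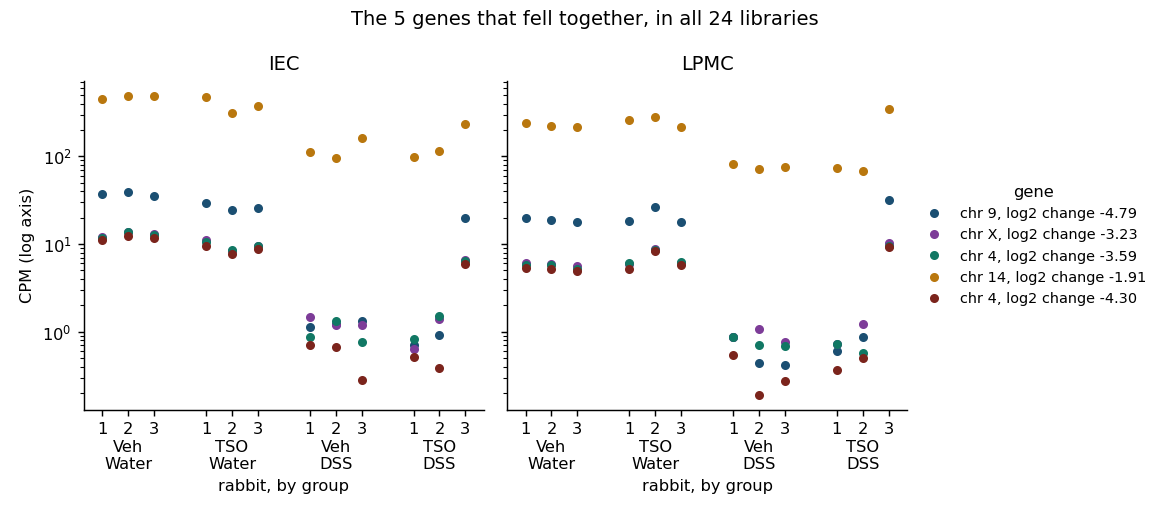
Reads relative to the library total (counts scaled as CPM, log axis) of the 5 genes that fell together, in each IEC library (left) and LPMC library (right), by group and rabbit. The genes are low in all 3 Veh DSS rabbits and in TSO DSS rabbits 1 and 2, and high in TSO DSS rabbit 3 and in all rabbits without DSS.

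The read proportions between these genes also differed between the groups. Reads of the chromosome 9 gene came to 8.24%, 7.97% and 7.23% of those of the chromosome 14 gene in IEC of Veh Water rabbits 1 to 3. In Veh DSS rabbits they came to 1.01%, 1.28% and 0.817%. LPMC had 8.46%, 8.44% and 8.30% in Veh Water and 1.05%, 0.626% and 0.544% in Veh DSS, and TSO DSS rabbit 3 had 8.28% in IEC and 9.26% in LPMC. The other 3 genes had 2.25% to 2.83% of the reads of the chromosome 14 gene in Veh Water, over both cell types. In Veh DSS, where reads were few, they varied more between rabbits, from 0.172% to 1.52%. Whether the 5 identifiers share reads, as near-identical copies of a gene would, was not tested, since no sequence was at hand, and their values are uncertain to that extent. The gene next most like the chromosome 14 gene over the 24 libraries, after the other four, was on chromosome 2 (r = 0.968 of 10398 genes compared, followed by 0.847 for the next). Its signal was 81.3, 56.5 and 105 in Veh DSS and 242, 256 and 258 in Veh Water, without overlap, and it was not called (log2 change -1.67 ± 0.28 SE, adjusted p = 0.356, limma).

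A single rising gene had reads in every library. The signal of ENSOCUG00000000831, on chromosome 9, was 430, 394 and 503 in Veh DSS rabbits 1 to 3 and 59.2, 90.5 and 65.9 in Veh Water rabbits. The means were 442 ± 55.4 and 71.9 ± 16.4 (SD, n = 3 each), 6.16-fold higher in Veh DSS, with a log2 change of 2.62 ± 0.25 (SE, adjusted p = 0.0364, limma). The lowest Veh DSS rabbit was well above the highest Veh Water rabbit. In IEC of the TSO groups the gene had 536, 600 and 385 reads with DSS and 102, 71 and 49 without. Its log2 change of TSO DSS against the same Veh Water libraries was 3.09 ± 0.23 (SE, adjusted p = 0.0022, limma), and it did not differ detectably between TSO DSS and Veh DSS (0.43 ± 0.19, adjusted p = 0.999). The gene was more abundant in LPMC, where it had 2321, 316 and 1061 reads in Veh DSS rabbits and 5122, 1172 and 473 in Veh Water rabbits. The groups overlapped there, and the log2 change in LPMC was -0.75 ± 1.03 (SE, adjusted p = 0.825, limma). The difference between the IEC and the LPMC change was 3.42 ± 1.19 (adjusted p = 0.834, limma), which did not pass the threshold.

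The remaining 4 called genes had values that jumped between 0 and 20 reads or more over the 24 libraries, with nothing between. ENSOCUG00000028329, on chromosome 4, had a signal of 96.3, 58.6 and 73.4 in Veh DSS and was listed at 0 in all 3 Veh Water libraries (adjusted p = 0.0136, limma). In reads these were 122, 55 and 56, and over the series the gene was at 0 in 17 of the 24 libraries and never between 0 and 55. In the other direction, ENSOCUG00000029100, on the mitochondrial genome, was listed at 0 in all 3 Veh DSS libraries and had 599, 227 and 770 in Veh Water (adjusted p = 0.0079, limma). It was at 0 in all 12 LPMC libraries, and in IEC it was at 0 or at 247 reads or more. A gene on chromosome 2 was likewise at 0 in Veh Water and at 47, 42 and 86 reads in Veh DSS (adjusted p = 0.0382, limma). Conversely, a chromosome 12 gene was at 0 in Veh DSS and at 67, 30 and 60 reads in Veh Water (adjusted p = 0.0468, limma). Over the series, the chromosome 12 gene took values of 0, of 30 to 34 or of 60 to 67 reads, and the chromosome 2 gene values of 0, of 42 to 49, of 86 to 96 or of 146. Such values do not look like counts of single reads. Since a group is listed at 0 and the fitted change rests on the pseudocount, no fold or log2 change of this comparison is given for these 4 genes. In all, 153 of the genes tested behaved in this way. Without them, 5 genes were called, 1 higher and 4 lower, and the second chromosome 4 gene among the falling genes missed the threshold (adjusted p = 0.0581, limma).

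**Figure D3:**
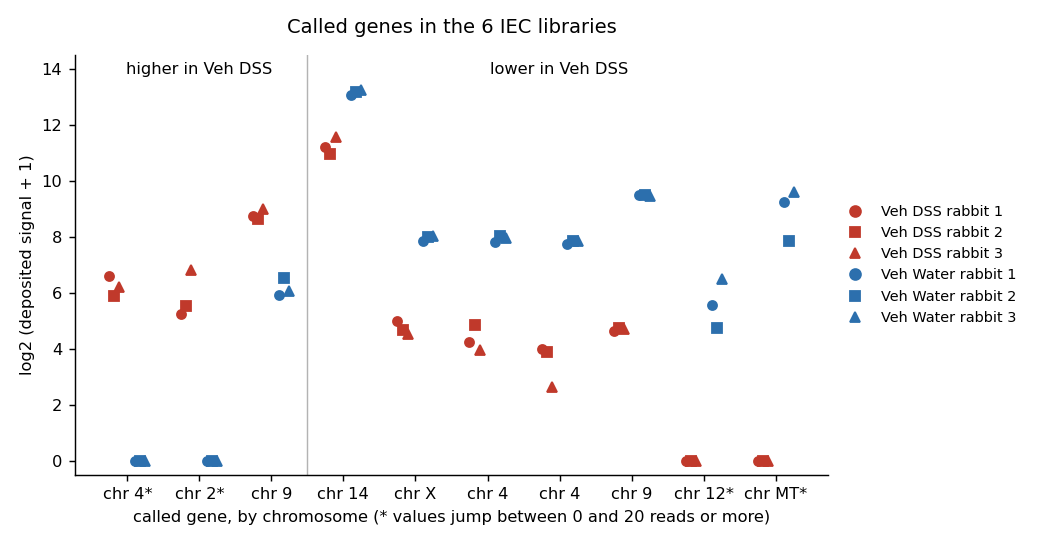
Log2 of the deposited signal plus 1 (y axis) of the 10 called genes (x axis, by chromosome) in each of the 6 IEC libraries, Veh DSS in red and Veh Water in blue. The 3 rabbits of a group lie apart from the other group at every gene, and the 4 genes with an asterisk are listed at 0 throughout one group.

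Among the genes that were not called, the 8 higher genes with the lowest unadjusted p-value and without overlap were mostly spread widely among the Veh DSS rabbits, and rabbit 2 had the highest signal in 7 of the 8. A gene on chromosome 1 had a signal of 299, 1656 and 282 in Veh DSS and of 2.79, 0 and 1.5 in Veh Water (log2 change 7.94 ± 0.85 SE, adjusted p = 0.0515, limma). Another gene of chromosome 1 had 136, 747 and 196 against 3.48, 0.870 and 0 (7.07 ± 0.83, adjusted p = 0.0779, limma). Veh DSS rabbit 2 exceeded the other Veh DSS rabbits several fold for both. The same rabbit was highest for the genes on chromosome 4 (110, 624 and 248 against 10.4, 5.22 and 10.5) and on chromosome X (66.3, 752 and 210 against 4.88, 5.22 and 3.00). For the gene on chromosome X, LPMC of the same rabbits had 15, 140 and 127 reads with DSS and 1, 5 and 1 without. All 8 genes were called in IEC of TSO DSS against the same Veh Water libraries (adjusted p between 0.00227 and 0.0215, limma), in a table in which 401 genes were called (3.57%). Since that comparison shares the Veh Water libraries, it is no separate evidence of a low level in them.

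The 8 lower genes chosen in the same way included a gene close to the threshold, and the others were far from it. For a gene on chromosome 15, reads were at 0 in all 3 Veh DSS libraries and at 27, 24 and 24 in Veh Water (adjusted p = 0.0515, limma). It was present in LPMC of both groups, with 82, 77 and 56 reads in Veh DSS and 155, 132 and 66 in Veh Water. The signal of a gene on chromosome 12 was 155, 11.7 and 28.8 in Veh DSS and of 814, 594 and 491 in Veh Water (-3.99 ± 0.87, adjusted p = 0.487, limma). Veh DSS rabbit 1 lay nearest to the controls in this gene and had the highest signal of the Veh DSS rabbits in 6 of the 8 genes, with a tie at 0 in the gene on chromosome 15. For a gene on chromosome 5 it was 609, 422 and 465 against 1739, 1344 and 1123 (-1.48 ± 0.22, adjusted p = 0.253, limma). The other 5 had log2 changes between -2.96 and -1.16, with adjusted p between 0.356 and 0.49.

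The nuclear genes with the most signal, not corrected for length, were not called. The 5 with the highest mean had log2 changes between -1.09 and 0.34 (adjusted p between 0.662 and 0.9, limma). The gene with the highest mean, on chromosome 2, had 395200, 539300 and 483300 in Veh DSS and 382700, 391000 and 340200 in Veh Water, so that the groups did not overlap. Its log2 change was 0.34 ± 0.36 (SE, adjusted p = 0.783, limma), and the other 4 genes overlapped. The largest difference among the 5 was in a gene on chromosome 16, with 172300, 50120 and 27850 in Veh DSS and 212700, 101000 and 109100 in Veh Water. Its Veh DSS rabbits spread over a wider range than its controls.

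The 3 Veh DSS rabbits were not equally far from the controls. Across the genes tested, the SD of the log2 difference to a Veh Water library was 0.806 to 0.961 for Veh DSS rabbit 1, against 0.812 to 0.934 between Veh Water rabbits. It was 1.42 to 1.49 for Veh DSS rabbit 2 and 1.16 to 1.30 for rabbit 3. Over all genes, Veh DSS rabbit 1 was thus as near to the Veh Water rabbits as these were to each other. Among the Veh DSS rabbits themselves the SD was 1.07 to 1.27. The 584 genes that were higher without adjustment had a median log2 change of 1.07 in Veh DSS rabbit 1, 3.09 in rabbit 2 and 2.07 in rabbit 3, each against the Veh Water mean. For the 137 lower genes these medians were -1.18, -2.06 and -2.27. As the genes were chosen on these libraries, these medians are a description.

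The number of calls depended on which rabbit was left out. Without Veh DSS rabbit 1, 302 genes were called, 246 higher and 56 lower, with all 10 genes among them. Veh DSS rabbit 1 itself was above all 3 Veh Water rabbits for 185 of these 246 genes (75.2%, against 21.4% of all 11193 genes tested), with a median log2 change of 0.91. It was below all 3 for 22 of the 56 lower genes (39.3%, against 20.1% of all genes), with a median of -0.11. These genes were called against the same 3 Veh Water libraries, so that low or high control values are part of how they were chosen, and the shares are a description. Without Veh DSS rabbit 2, 4 genes were called, and without rabbit 3, 7. Without Veh Water rabbit 2, 2 genes were called. Without Veh Water rabbit 1, which is also the comparison within a single room, limma called 0 genes (597 at an unadjusted p-value), and without Veh Water rabbit 3 it called 0 (464 at an unadjusted p-value). Each of the 10 genes was therefore called only with certain sets of rabbits. Without Veh Water rabbit 1, the log2 changes of the called genes without jumping values stayed close to those of all 6 rabbits. The falling chromosome 9 gene kept -4.79, and the rising one had 2.50 in place of 2.62. The other 4 falling genes of this kind had changes between -4.34 and -1.95, in place of -4.30 and -1.91. The falling chromosome 9 gene had adjusted p between 0.00449 and 0.0733 over the 6 sets of 5 rabbits, and the rising one between 0.0193 and 0.22. Tests on the recovered reads differed as widely, with 2 genes called by the quasi-likelihood test of edgeR, 400 by its likelihood ratio test and 402 by DESeq2.

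**Figure D4:**
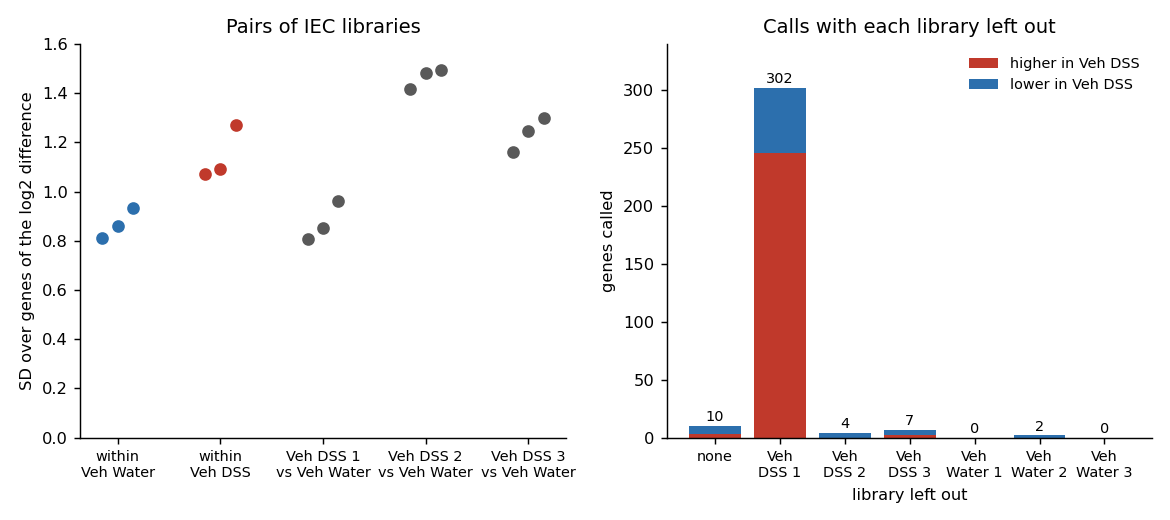
Left, SD over 11193 genes of the log2 difference between 2 IEC libraries (y axis), a point per pair, within each group and for each Veh DSS rabbit against the 3 Veh Water rabbits. Right, number of genes called (y axis), higher in red and lower in blue, with no library left out and with each of the 6 left out, where leaving out Veh DSS rabbit 1 gives 302 calls and any other library 7 or fewer.

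Many of the higher genes were genes typical of the lamina propria cells. To mark such genes without using the libraries compared, IEC and LPMC of the TSO Water rabbits were set against each other, which gave 955 tested genes higher in LPMC and 236 higher in IEC (adjusted p under 0.05, absolute log2 difference above 2, limma). Of the 955 LPMC genes, 246 (25.8%) were higher in IEC of Veh DSS without adjustment, against 5.22% of all genes tested, and 21 (2.20%) were lower, against 1.22% of all. The 3 libraries of each group did not overlap, with Veh DSS higher, for 256 of them (26.8%, against 7.94% of all). Their median log2 change was 0.62, against -0.05 over all genes. A single member was called, the rising gene on chromosome 9 described above. Seen from the other side, the LPMC genes made up 42.1% of the 584 higher genes and 8.53% of the genes tested.

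The share of reads taken by the 955 LPMC genes in IEC was 2.45%, 9.86% and 5.84% in Veh DSS rabbits 1 to 3 and 2.28%, 2.08% and 1.64% in Veh Water rabbits 1 to 3 (95% Wilson intervals within 0.0132 percentage points, for counting error only). Every Veh DSS rabbit was above every Veh Water rabbit, with rabbit 1 nearest to them. Rabbit 1 also had the highest mitochondrial share of the 6 libraries, and as a share of nuclear reads alone the LPMC genes made up 3.50% in it, against 2.08% to 2.86% in Veh Water. LPMC libraries themselves held 13.3% to 17.5% in Veh DSS and 15.4% to 26.8% in Veh Water. The order of the Veh DSS rabbits in this share, rabbit 2 above rabbit 3 above rabbit 1, was also their order in distance from the controls. Among the 246 genes called higher without Veh DSS rabbit 1, 146 (59.3%) belonged to the LPMC genes, which were 8.53% of all genes tested. In the count tests, 187 of 367 genes called higher by the likelihood ratio test and 205 of 384 by DESeq2 belonged to them, with 330 genes called higher by both.

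Of the 10 LPMC genes with the most reads in the 6 IEC libraries, 8 had the order rabbit 2, rabbit 3, rabbit 1 among the Veh DSS rabbits. In 5 of the 10, all Veh DSS rabbits were above all Veh Water rabbits, against 7.94% of all genes tested. The order of the rabbits was not counted over all genes. The 10 genes were ranked on mean reads in these 6 libraries, so that high values in Veh DSS are part of the choice. These counts are a description. The gene with the most reads, on chromosome 15, was not among the 8, with 0.148%, 0.897% and 0.0787% in Veh DSS and 0.164%, 0.117% and 0.225% in Veh Water. A gene on chromosome 4 took 0.0238%, 0.777% and 0.325% of the reads in Veh DSS rabbits 1 to 3 and 0.0126%, 0.0101% and 0.00806% in Veh Water rabbits. Of the 10, 4 were on chromosome 12, and the largest of these took 0.0973%, 0.616% and 0.380% in Veh DSS and 0.0312%, 0.0746% and 0.0327% in Veh Water. Chromosome 12 as a whole had the highest share of higher genes of the numbered chromosomes and X. It was 7.5% of 760 genes without adjustment, against 5.22% of all genes tested. The smallest share was 1.84% of 163 genes, on chromosome 20. How far cells of the lamina propria in the IEC preparations contributed to these values was not tested.

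The 236 genes typical of IEC showed no rise. Without adjustment, 0 were higher in Veh DSS, against 5.22% of all genes tested, and 10 (4.24%) were lower, against 1.22%, and limma called 0 with adjustment. The libraries did not overlap, with Veh DSS lower, for 18 of them (7.63%, against 5.46% of all), and for 0 with Veh DSS higher. Values jumped in 40 of the 236 genes, against 153 of the 11193 tested. Chromosome 2 held 52 of the 236 genes, which were 6.68% of its genes tested, against 2.11% over all genes. It also held 41 of the 153 genes with jumping values. The median log2 change of the 236 genes was -0.57, and by Veh DSS rabbit it was -0.28, -1.22 and -0.25. Their share of the reads was 1.92%, 3.46% and 2.24% in Veh DSS and 2.18%, 2.70% and 3.35% in Veh Water. The groups overlapped. Veh DSS rabbit 2 had the highest summed share of all reads and the lowest median log2 change of these genes. As a share of nuclear reads alone, the IEC genes made up 2.74%, 3.95% and 2.61% in Veh DSS rabbits 1 to 3. In Veh Water rabbits 1 to 3 they made up 2.73%, 3.40% and 4.24%, so that Veh Water rabbit 3 was highest on that scale. The 10002 genes in neither list had 338 higher (3.38%) and 106 lower (1.06%) without adjustment, against 5.22% and 1.22% of all genes tested, and a median log2 change of -0.06.

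**Figure D5:**
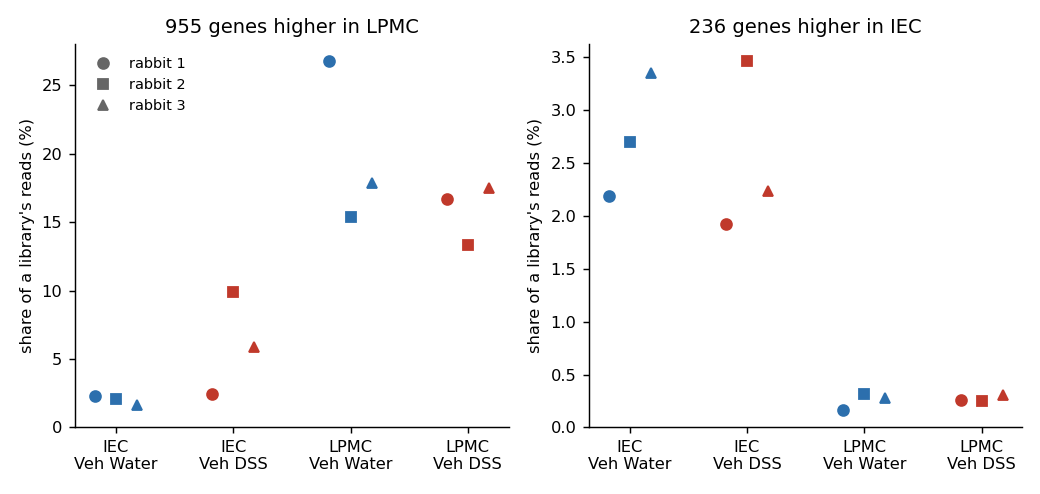
Share of a library's reads (y axis, percent) taken by the 955 genes higher in LPMC (left) and the 236 genes higher in IEC (right), chosen in TSO Water rabbits, in the IEC and LPMC libraries of Veh Water (blue) and Veh DSS (red). In IEC, Veh DSS rabbits 2 and 3 hold 9.86% and 5.84% of LPMC genes and the other 4 libraries 2.45% or less.

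Low counts accounted for part of the lists. Of the 584 higher genes, 57 had at most 3 reads in each Veh Water library, and of the 137 lower genes, 29 had at most 3 reads in each Veh DSS library. For these, the size of the change rests on the pseudocount.

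The mitochondrial genome showed unequal shares among the DSS rabbits. Its 37 genes took 29.9%, 12.4% and 14.2% of the reads in Veh DSS rabbits 1 to 3, and 20.1%, 20.5% and 21.0% in Veh Water rabbits. The means were 18.8% ± 9.63 and 20.5% ± 0.457 (SD, n = 3 each), and the difference of -1.73 percentage points was within the spread (exact two-sided permutation test, p = 1, with 0.1 the smallest p that 3 against 3 can give). Veh DSS rabbits lay on both sides of the controls, and the difference was between -7.26 and 1.49 percentage points with each rabbit left out in turn. Listing was irregular, since 4 mitochondrial genes were at 0 in some libraries and above 100000 reads in others. Of these, a gene had 673017 reads in Veh DSS rabbit 3 and 0 in the other 5 libraries. Among the 15 genes with reads in all 6 libraries, the share was 19.2%, 5.95% and 4.69% in Veh DSS and 20.1%, 10.5% and 11.0% in Veh Water (difference -3.91 percentage points, exact permutation test, p = 0.5). The mitochondrial values, including the called gene ENSOCUG00000029100, carry this limit.

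The change in IEC was set against that in LPMC of the same rabbits. Only 2 of 10508 genes differed (0.019%, limma), both with jumping values, and 612 (5.82%) did so at an unadjusted p-value. The 584 genes higher in IEC had a median log2 change of 0.53 in LPMC, where 132 of the 562 tested were higher and 9 lower without adjustment. The 137 genes lower in IEC had a median of -0.98 there, with 29 of 112 lower and 0 higher without adjustment. Of all 11218 genes tested in LPMC, 2.17% were higher and 3.24% lower in this way.

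The same genes were also set against TSO DSS in IEC, without the control libraries. Of 10376 genes, limma called 1 (0.00964%), a mitochondrial gene with jumping values that was at 0 in all Veh DSS libraries and at 230, 234 and 266 reads in TSO DSS. Without adjustment, 86 genes (0.829%) were higher and 26 (0.251%) lower in TSO DSS. The 584 genes had a median log2 difference of 0.02 between TSO DSS and Veh DSS, with 9 higher and 9 lower without adjustment among the 552 tested. For the 137 lower genes this median was 0.43, with 3 higher and 0 lower among 81. Both lists were chosen on the same Veh DSS libraries that are the reference here, so that these medians and counts are a description. Against Veh Water, 401 genes were called in IEC of TSO DSS (3.57%) and 10 in Veh DSS (0.0893%), and these counts share their control libraries and were not tested against each other.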

How the data were processed

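RNA of IEC of 3 Veh DSS and 3 Veh Water rabbits was measured by RNAseq of polyadenylated, unstranded libraries, so that reads of overlapping and antisense genes cannot be told apart. In the deposited table the authors give a normalised signal per gene and library and a mark for genes taken as present, by a rule not given in the sources used here. The deposited table also holds the authors' log2 ratio of the groups and their p-value and FDR, which were not used. The submitters' processing notes name the build OryCun2.0 and FastQC. The aligner and the counting program are not given in the sources used here.

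The table was assumed to hold either counts or normalised values. It held the latter, so limma 3.58.1 (trend, R 4.3.3) was run on log2(signal + 1) over the 11193 genes marked present, without a replicate block, with calls at an adjusted p (Benjamini-Hochberg) below 0.05 and a log2 change beyond 1 in either direction. Reads were recovered by dividing each column by its smallest step: 100% of values under 1000 were within 0.1 of a whole number. Because some genes step by many reads, these may be estimated counts. Recovered reads served for depth, for comparisons across tables (TMM-scaled, genes with a mean of 10 reads or more) and for edgeR 4.0.16 and DESeq2 1.42.0. The 6 libraries held 13148500 to 27479949 reads. Tests were checked on simulated data.

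Members and lists were chosen with earlier results of these data known. The rule for single genes took all called genes, then the 8 with the lowest unadjusted p-value in each direction among genes that were not called, did not overlap, passed the fold and had a mean of 10 reads, then the 5 most abundant nuclear genes, and the mitochondrial genes as a group. Its part on 23 lists of symbols could not be kept, since 0 of 17318 identifiers matched the name table (38822 genes, mOryCun1.1). Identifiers are printed for the 2 rising and 2 falling genes with the lowest adjusted p-value. Alternatives were the unadjusted p-value, other filters, pseudocount and scaling, all 12 IEC libraries, a replicate block, count tests and each rabbit left out. Leaving out genes with jumping values, library weights and mitochondrial genes with reads in all 6 libraries were added after seeing the data.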

Additional observations from a re-analysis of the deposited data

Results flagged for a closer look

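The DSS change differed between IEC and LPMC for 2 genes by the interaction of cell type and DSS (limma, 10508 genes, 3 rabbits in each of 4 groups of libraries). The first, on chromosome 9, had an IEC change that was lower than the LPMC change by a log2 difference of -6.96 (SE 0.77, adjusted p = 0.0139). Its IEC reads were 22, 39 and 39 in Veh DSS and 44, 80 and 39 in Veh Water, whereas in LPMC it had 84, 42 and 82 reads in Veh DSS and was at 0 in all Veh Water libraries. The second was the mitochondrial gene ENSOCUG00000029100, with a difference of -8.62 (SE 0.86, adjusted p = 0.0102), which was at 0 in all LPMC libraries and in IEC of Veh DSS. Both genes had values that jumped between 0 and 20 reads or more, so that the size of the difference rests on the pseudocount, and neither was called by the quasi-likelihood test of edgeR.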

How the results depend on the processing

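Against 10 genes called in IEC, 721 passed the unadjusted p-value, 4 were called with no filter on low genes, 3 (3 higher, 0 lower) with all 12 IEC libraries in the fit and 5 without genes with jumping values. On recovered reads, the quasi-likelihood test called 2 (826 unadjusted), the likelihood ratio test 400 (367 higher, 33 lower) and DESeq2 402 (384 higher, 18 lower). Leaving out each rabbit gave 0 to 302 calls (439 to 1385 unadjusted). Counts were within 1.5 times of 10 with a pseudocount of 0.1 (9), a mean of 10 reads (7), library size only (12), TMM (10) and a weight per library (11, of which 5 higher). With the replicate number as a block, limma called 0 genes (819 unadjusted). Deviations of libraries with the same number correlated at 0.21, 0.03 and 0.09 for numbers 1 to 3. Between different numbers, those of Veh DSS rabbits 1 to 3 correlated at -0.12 to -0.11, -0.06 to 0.04 and -0.18 to 0.11. Number 1 thus stood apart, and whether the numbers pair the rabbits cannot be told from 3 libraries per group. No alternative turned the direction of a called gene, and the causes of lost calls were not tested.

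For the interaction of cell type and DSS, 2 genes were called, also with the rabbit as a block. It gave 612 unadjusted, 0 by the quasi-likelihood test (725 unadjusted), 0 without genes with jumping values (612 unadjusted in limma) and 0 to 4 with each rabbit left out (264 to 1170 unadjusted). For TSO DSS against Veh DSS in IEC, the 1 call became 112 unadjusted, 0 with the replicate block (83 unadjusted), 0 by the quasi-likelihood test (128 unadjusted) and 0 to 1 with each rabbit left out (71 to 215 unadjusted). The mitochondrial difference of -1.73 percentage points was between -7.26 and 1.49 with each rabbit left out. With 3 rabbits per group, differences of moderate size between groups that vary as Veh DSS does may be missed, and genes of few reads rest on the pseudocount.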
